A study of Mus musculus with 24 samples.

Results

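The lysosome and the endosomal compartments that feed it are where a dendritic cell cuts up the proteins it has taken in. Expression of 32 genes of this system was followed across 24 arrays. They are 11 genes for proteases or a thiol reductase, 6 glycosidases, saposins and granulins, 6 membrane proteins, 6 subunits or partners of the proton pump, and a transcription factor with 2 ion channels. Each is represented by the probe set whose single gene symbol on the platform is that gene, and every member had exactly 1 such probe set, out of 19938 genes represented in this way. All 32 were among the 11228 genes tested, a gene being tested where 3 or more arrays gave it a value over that array's median. Mcoln2 did so on 7 arrays, Galc on 12 and Ctsl on 22, and the other members on all 24. Galc did so on the 12 CD8+ arrays and on 0 of the 12 CD11b+ arrays. For Mcoln2 the arrays were the 6 of NOD CD8+ cDC and 1 of PBS-injected B6 CD8+ cDC. Both genes thus entered the test through the groups in which they are high, so counts that hold them are descriptions, and differences from the groups under the array median have no exact size.

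The cells were conventional dendritic cells (cDC) sorted from the spleens of female mice aged 8 to 10 weeks, 12 h after an injection of PBS or of CpG-A, an oligonucleotide sensed by Toll-like receptor 9. The mice were C57BL/6 (B6) or NOD/ShiLt (NOD), an inbred strain that develops autoimmune diabetes. From each, CD8+ cDC, the subset known for presenting ingested antigen on MHC class I, and CD11b+ cDC, the subset known for presentation on MHC class II, were sorted. The 8 groups of 3 arrays are therefore CD8+ and CD11b+ cDC, each from B6 and NOD mice, each after PBS or CpG-A. The labels name no transgene or deletion in any group. Whether replicates are separate mice or pools is not in the labels, so p-values measure only how far these samples differ, and that spread may be technical. The subset labels were borne out by the defining genes. Under PBS in B6 mice Cd8a was 4.47 and Xcr1 4.10 higher in CD8+ cDC on the log2 scale, and Itgam, which encodes CD11b, differed by -3.94. In NOD mice the differences were 5.62, 4.43 and -3.92.

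Lysosomal proteases of the cathepsin family, together with the asparagine-specific protease legumain and the reductase GILT, which opens disulphide bonds, turn endocytosed proteins into peptides and trim the invariant chain that guards MHC class II molecules. Glycosidases strip sugars from glycoproteins and glycolipids, helped by the saposins that are cut from prosaposin. The vacuolar ATPase pumps protons into the compartment so that these enzymes work, and heavily glycosylated proteins such as LAMP1 and LAMP2 line its membrane. Many of these genes carry a palindromic site in their promoter that is bound by the transcription factor TFEB and its relatives. Dendritic cells are known to keep their proteolysis restrained, which spares peptides for presentation, and to change it when they mature.

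Promoter sequence from RefSeq (build GRCm38.p6, 250 bases before to 50 after a start site) was found for 27 of the 32 genes, in 32 windows. The genes without an entry were Ctsb, Ctsh, Atp6v1b2, Atp6v1c1 and Atp6v1h. The 4 short motifs were searched on both strands: CACGTG, the core of the E-box, TCACGTGA, the palindrome bound by TFEB and its relatives, which contains CACGTG, AANNGAAA, part of the sites bound by interferon regulatory factors, and GAGGAAGT, the PU.1 box. CACGTG was present in 11 of the 32 windows (34.4%), in 7.15% of all 32851 windows and in 9.88% of the windows of genes tested. TCACGTGA was present in 6 windows (18.8%), against 0.974% of all and 1.89% of those of genes tested. AANNGAAA was present in 11 windows (34.4%, against 23.9% and 18.2%), and GAGGAAGT in 3 (9.38%, against 3.2% and 3.33%). A match is a description of the letters and not of binding.

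Shown here are the 150 bases before the start site of 5 genes, chosen for the range of their motifs and of their responses to CpG-A described further on, each 5′ to 3′ on the gene's strand with matches of CACGTG and AANNGAAA in capitals. Lamp1, which rose after CpG-A in both subsets and strains, lies at chr8:13159011-13159160 (plus strand), Ctss at chr3:95526636-95526785 (plus strand), Mcoln1 at chr8:3500369-3500518 (plus strand), Ctsd at chr7:142387828-142387977 (minus strand) and Gusb, which fell in both subsets and strains, at chr5:130003050-130003199 (minus strand).
Lamp1: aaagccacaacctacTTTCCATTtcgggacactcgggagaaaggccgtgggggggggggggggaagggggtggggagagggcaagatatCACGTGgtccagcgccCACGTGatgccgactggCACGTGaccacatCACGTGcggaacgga
Ctss: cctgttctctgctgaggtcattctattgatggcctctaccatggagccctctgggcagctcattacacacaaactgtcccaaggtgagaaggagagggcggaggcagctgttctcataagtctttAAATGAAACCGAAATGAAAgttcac
Mcoln1: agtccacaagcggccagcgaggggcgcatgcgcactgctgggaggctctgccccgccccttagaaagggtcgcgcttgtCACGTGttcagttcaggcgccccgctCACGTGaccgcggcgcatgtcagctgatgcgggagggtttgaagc
Ctsd: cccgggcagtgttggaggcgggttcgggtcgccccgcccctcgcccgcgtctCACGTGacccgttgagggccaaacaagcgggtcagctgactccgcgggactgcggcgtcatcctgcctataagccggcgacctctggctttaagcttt
Gusb: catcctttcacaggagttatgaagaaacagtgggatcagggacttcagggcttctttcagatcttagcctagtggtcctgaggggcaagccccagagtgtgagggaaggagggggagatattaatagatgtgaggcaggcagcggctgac

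Lamp1 has 4 copies of CACGTG, whose first bases on this strand lie at -61, -45, -28 and -15 from the start site, and 1 match of AANNGAAA on the other strand at -135. In Ctss 3 matches of AANNGAAA overlap each other, at -25, -19 and -14. Mcoln1 has CACGTG at -71 and at -45, the second within TCACGTGA, and Ctsd has TCACGTGA around the CACGTG at -98. The stretch shown for Gusb holds none of the 4 motifs. The presence of CACGTG was shared by genes with different responses to CpG-A. Of the 11 genes with it 4 rose in all comparisons of CpG-A with PBS (Lgmn, Ifi30, Gaa and Lamp1), 5 passed the test in none (Ctsd, Ctsl, Atp6v0d1, Atp6v1a and Mcoln2), and Ctsa and Mcoln1 fell in some. Of the 6 genes with TCACGTGA 1 rose in all of them (Ifi30) and 3 passed in none (Ctsd, Atp6v0d1 and Atp6v1a). AANNGAAA was found in 10 genes, of which 4 rose in all (Ctss, Grn, Lamp1 and Lamp2), 1 passed in none (Ctsl) and 5 passed in some.

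Values are the deposited log2 expression values, each listed in the order of replicates 1, 2 and 3. Differences are log2 differences ± the standard error of a limma fit over all 24 arrays, with n = 3 arrays per group. "Rose" and "fell", "higher" and "lower" are used of differences with an adjusted p (Benjamini-Hochberg over all genes tested) under 0.05. Arrays correlated with the others of their group at 0.979 to 0.988, except for the 3 arrays of CpG-injected NOD CD8+ cDC, at 0.95, 0.971 and 0.962. In that group the standard deviation of the members had a median of 0.27 (0.22 over all genes tested), against 0.09 to 0.16 in the other groups, so the members' printed differences that use it and passed are also given, as a range, with each of its arrays left out in turn. The scale sets a limit of its own. Centring each array on the median of the genes tested moved all differences of CpG-A from PBS up by 0.25 in B6 CD8+, 0.14 in NOD CD8+, 0.12 in B6 CD11b+ and 0.02 in NOD CD11b+ cDC. For B6 CD8+ cDC the median over all genes was -0.10 as deposited and 0.15 when centred. In bulk samples fewer cells of a type and less RNA per cell cannot be told apart.

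CpG-A moved lysosomal genes in both directions. In B6 CD8+ cDC 11 members rose and 9 fell, where 21.1% and 36.6% of all genes tested did (62.5% against 57.7% in either direction). In NOD CD8+ cDC 11 members rose and 9 fell, where 15.1% and 25.5% of all genes tested did (62.5% against 40.7% in either direction). In B6 CD11b+ cDC 10 members rose and 9 fell, where 15.9% and 23% of all genes tested did (59.4% against 38.9% in either direction). In NOD CD11b+ cDC 8 members rose and 2 fell, where 9.7% and 5.73% of all genes tested did (31.2% against 15.4% in either direction). The PBS and CpG arrays did not overlap for 25, 23, 21 and 20 members in that order, against 65%, 44.8%, 51.9% and 35% of all genes. The members' median differences were -0.04, 0.06, 0.02 and 0.16. The median over all genes was -0.10, -0.08, -0.07 and -0.04. With arrays centred on the genes tested, 14 rose and 9 fell in B6 CD8+, 15 and 8 in NOD CD8+, 10 and 7 in B6 CD11b+ and 9 and 3 in NOD CD11b+ cDC. After quantile normalization the split in B6 CD11b+ cDC was 7 higher and 11 lower. Without replicate 1, 2 or 3 of CpG-injected NOD CD8+ cDC the count in that group was 18, 20 or 22. No array is used in more than 1 of the 4 comparisons. They need not be independent, since same-numbered arrays of both subsets deviated together (correlation 0.105 to 0.445) and all share 1 estimate of the spread. The protease Lgmn, the thiol protease Ctss, the reductase Ifi30, the glucosidase Gaa, the granulin precursor Grn and the membrane proteins Lamp1, Lamp2 and Cd63 rose in all 4, 8 of 32 members, where 6.72% of all genes did. After quantile normalization Ctss and Ifi30 each kept the call in 1 of the 4. Gusb was the member that fell in all 4 (3.49% of all genes). The 9 that passed in none were Ctsb, Ctsd, Ctsh, Ctsl, Atp6v0d1, Atp6v1a, Atp6v1c1, Atp6v1h and Mcoln2 (31.5% of all genes), and the other 14 passed in 1 to 3 comparisons.

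**Figure D1:**
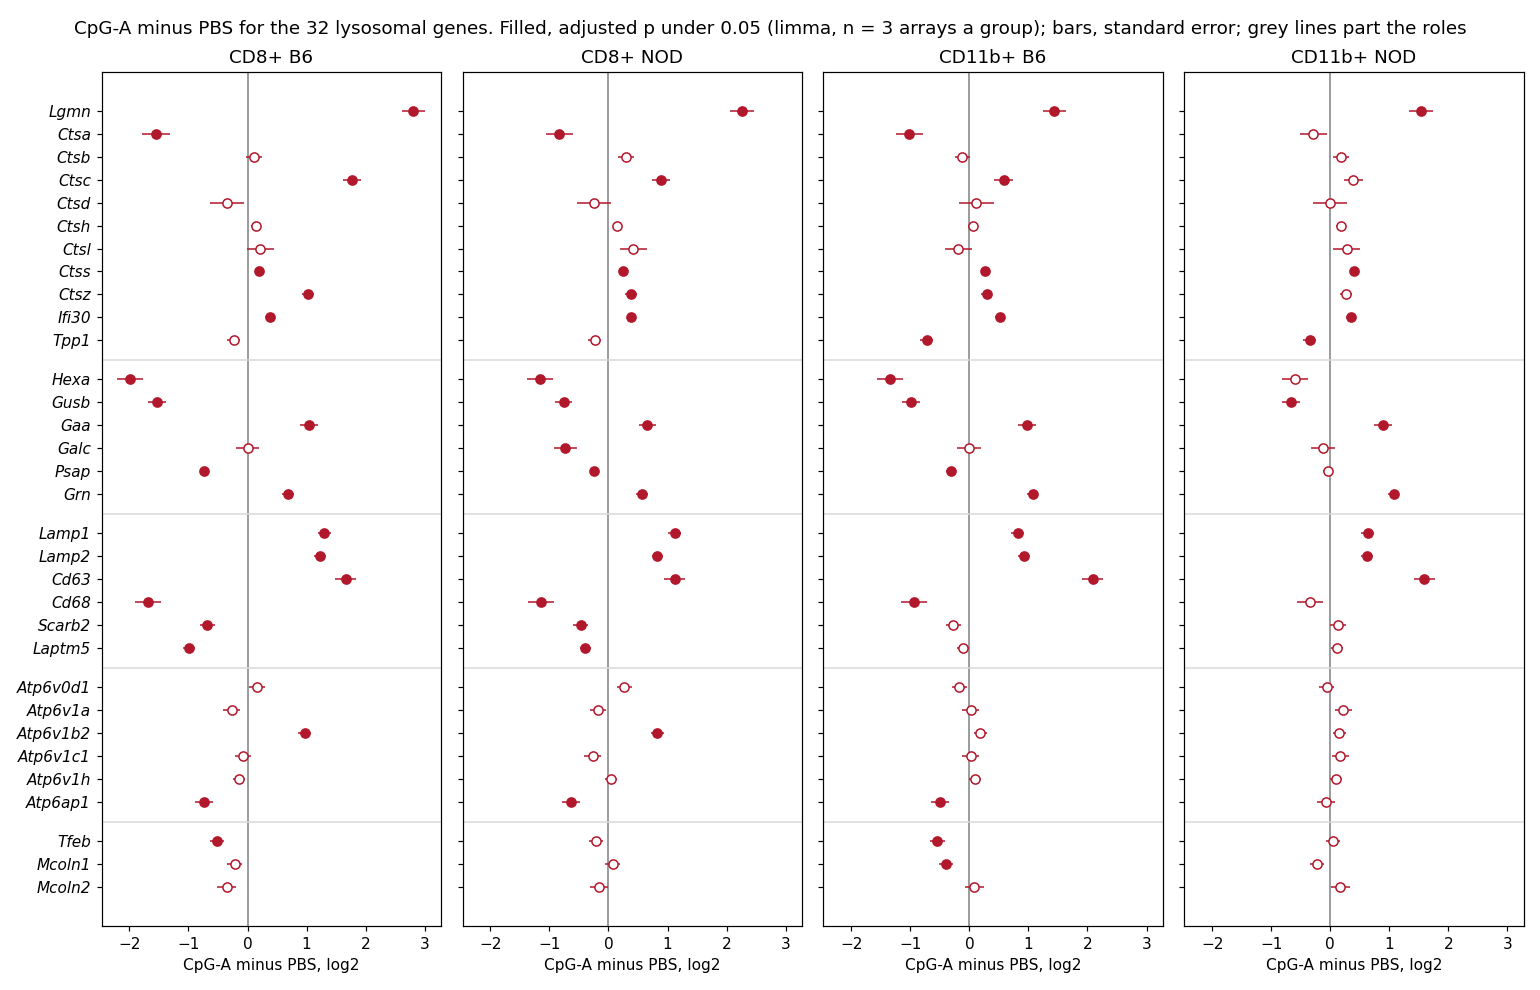
Difference of CpG-A from PBS on the log2 scale (horizontal axis) for each of the 32 genes (vertical axis, ordered by role from proteases at the top to the regulator and channels) in the 4 pairs of groups. Points are differences, bars standard errors, and filled points passed an adjusted p of 0.05. Lgmn lies farthest to the right, at 2.81 in B6 CD8+ cDC, and Hexa farthest to the left, at -1.99, while most of the proton pump subunits lie near 0.

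Markers of the cell types that a sort could hold moved with CpG-A too. Of 10 markers of CD8+ cDC 8 fell in B6 CD8+ (median -1.75, summed level 14.14 to 14.26 after PBS and 13.18 to 13.51 after CpG-A) and 7 in NOD CD8+ cDC (median -0.85). In B6 CD8+ cDC 1 of the 10 rose. Of 9 markers of CD11b+ cDC 6 fell in B6 CD11b+ (median -1.03) and 4 in NOD CD11b+ cDC (median -0.25). Of 6 monocyte markers 4 fell in B6 CD8+, 4 in NOD CD8+, 5 in B6 CD11b+ and 1 in NOD CD11b+ cDC, with medians of -1.72, -1.15, -0.94 and -0.59. In B6 CD8+ cDC 1 of these 6 rose. Of 8 markers of cDC in general 5 fell and 2 rose there. Markers of these lists that rose in the other groups are not counted here. NK cell markers rose, all 10 of them in B6 CD11b+ cDC (median 3.50, summed level 9.82 to 10.67 after PBS and 13.52 to 14.40 after CpG-A), 5 of 10 in B6 CD8+ (median 0.49), 4 in NOD CD8+ (median 0.29) and 6 in NOD CD11b+ cDC (median 0.95). Of 7 plasmacytoid dendritic cell markers 2 rose and 2 fell in B6 CD8+ cDC. Their summed level after PBS and CpG-A was 10.67 to 10.92 and 11.85 to 12.21 there. In NOD CD8+ cDC it was 11.03 to 11.10 and 11.82 to 12.25. In B6 CD11b+ cDC it was 10.08 to 10.35 and 11.89 to 12.05, and in NOD 9.97 to 10.31 and 11.47 to 11.75. Of 11 red pulp macrophage markers 3 rose and 1 fell in B6 CD8+ cDC. In NOD CD8+ cDC their summed level was 10.90 to 11.25 and 11.88 to 12.23. The part of any of these in the lysosomal genes was not tested.

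Of the 11 protease and reductase genes, those that rose and fell after CpG-A were 5 and 1 in B6 CD8+, 5 and 1 in NOD CD8+, 5 and 2 in B6 CD11b+ and 3 and 1 in NOD CD11b+ cDC. The shares of all genes tested were 21.1% and 36.6%, 15.1% and 25.5%, 15.9% and 23%, and 9.7% and 5.73% in that order. They stand beside the counts of every role given below. Among the protease and reductase genes, legumain (Lgmn, probe set 10402268) showed the largest rise. In B6 CD8+ cDC its values were 8.23, 8.66 and 8.25 after PBS and 11.10, 11.31 and 11.16 after CpG-A, a rise of 2.81 ± 0.20 or 7.01-fold (adjusted p = 7.29e-11). In NOD CD8+ cDC they were 8.80, 8.28 and 8.12 against 11.05, 10.80 and 10.14, a rise of 2.26 ± 0.20. Every CpG array lay above every PBS array in both strains. In B6 CD11b+ cDC Lgmn went from 8.77, 8.87 and 8.63 to 10.21, 10.15 and 10.24 (1.44 ± 0.20), and in NOD CD11b+ cDC from 8.20, 8.15 and 8.50 to 10.20, 9.77 and 9.51 (1.54 ± 0.20), again with no overlap. The rise in B6 was larger in CD8+ than in CD11b+ cDC by 1.36 ± 0.28 (adjusted p = 0.0019). In NOD that difference of rises was 0.72 ± 0.28 (adjusted p = 0.129).

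Cathepsin C (Ctsc), which activates granule serine proteases, rose in 3 comparisons. Its values in B6 CD8+ cDC were 8.38, 8.90 and 8.24 after PBS and 10.20, 10.25 and 10.37 after CpG-A (1.77 ± 0.16, adjusted p = 6.11e-09). NOD CD8+ cDC went from 8.55, 8.63 and 8.19 to 9.08, 9.75 and 9.22 (0.89 ± 0.16). Neither pair of groups overlapped, and the CpG arrays of B6 all lay above those of NOD. In CD11b+ cDC Ctsc rose by 0.58 ± 0.16 in B6, a call that ended after quantile normalization (0.40, adjusted p = 0.0573), and the NOD difference was 0.39 ± 0.16 (adjusted p = 0.118). Cathepsin Z (Ctsz), a carboxypeptidase, rose by 1.02 ± 0.10 in B6 CD8+ cDC, from 9.79, 9.82 and 9.73 to 10.70, 10.98 and 10.72. It rose by 0.38 in NOD CD8+ and by 0.29 in B6 CD11b+ cDC. The NOD CD8+ call ended in a fit of only the groups compared (0.38, adjusted p = 0.0638), and the B6 CD11b+ call after quantile normalization (0.07, adjusted p = 0.587), with arrays centred on all probe sets (0.26, adjusted p = 0.0993) and without replicate 2 or 3 of PBS-injected B6 CD11b+ cDC or replicate 1 or 3 of CpG-injected B6 CD11b+ cDC (adjusted p 0.0795 to 0.117). In B6 both genes rose more in CD8+ than in CD11b+ cDC, Ctsc by 1.19 ± 0.23 and Ctsz by 0.73 ± 0.15.

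Cathepsin S (Ctss) trims the invariant chain in dendritic cells, and Ifi30 encodes the reductase GILT. Ctss values were 11.03, 11.02 and 10.97 after PBS and 11.15, 11.21 and 11.23 after CpG-A in B6 CD8+ cDC (0.19 ± 0.07), and 11.29, 11.46 and 11.36 and 11.80, 11.88 and 11.62 in NOD CD11b+ cDC (0.40 ± 0.07). The groups did not overlap in either pair, and the other rises were 0.25 in NOD CD8+ and 0.26 in B6 CD11b+ cDC. These small rises depended on the scaling. After quantile normalization Ctss changed sign in B6 CD8+ (-0.14, adjusted p = 0.0504) and B6 CD11b+ cDC (-0.04, adjusted p = 0.633) and was 0.03 in NOD CD8+ cDC (adjusted p = 0.747). The B6 CD8+ call further ended with arrays centred on all probe sets (adjusted p = 0.127), in eBayes without the trend (0.057) and without replicate 3 of PBS-injected B6 CD8+ cDC (0.0561), and the NOD CD8+ call in a fit of only the groups compared (0.0708). Ifi30 rose by 0.38, 0.39, 0.51 and 0.35 in B6 CD8+, NOD CD8+, B6 CD11b+ and NOD CD11b+ cDC. Its calls ended after quantile normalization in all of these except B6 CD11b+ cDC, at 0.06, 0.16 and 0.18 (adjusted p 0.602, 0.154 and 0.203).

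Cathepsin A (Ctsa), a serine carboxypeptidase that also protects other lysosomal enzymes, went down. In B6 CD8+ cDC it fell from 9.43, 9.56 and 9.53 to 7.27, 8.10 and 8.51 (-1.55 ± 0.23, adjusted p = 6.91e-06). In NOD CD8+ cDC it fell from 9.69, 9.64 and 9.77 to 8.19, 9.04 and 9.38 (-0.83 ± 0.23), with replicate 1 the lowest CpG array in both strains. The NOD call ended without replicate 1 of CpG-injected NOD CD8+ cDC (-0.49, adjusted p = 0.0756). B6 CD11b+ cDC went from 10.75, 10.74 and 10.72 to 9.50, 9.64 and 10.00 (-1.02 ± 0.23), and in NOD CD11b+ cDC the difference of -0.29 ± 0.23 did not pass (adjusted p = 0.47). Tpp1, a tripeptidyl peptidase, fell in CD11b+ cDC by 0.72 in B6 and by 0.35 in NOD. The NOD call ended without the filter (-0.35, adjusted p = 0.0714), with arrays centred on all probe sets (-0.31, adjusted p = 0.129) and without replicate 1, 2 or 3 of PBS-injected NOD CD11b+ cDC or replicate 1 or 2 of CpG-injected NOD CD11b+ cDC (adjusted p 0.0645 to 0.204).

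The classical cathepsins Ctsb, Ctsd, Ctsh and Ctsl passed in none of the 4 comparisons. Their differences ran from -0.35 (Ctsd in B6 CD8+ cDC) to 0.42 (Ctsl in NOD CD8+ cDC). For cathepsin B the 95% interval was -0.17 to 0.39 in B6 CD8+ and -0.40 to 0.16 in B6 CD11b+ cDC. For cathepsin D, an aspartic protease, it was wider, -0.94 to 0.25 and -0.48 to 0.71, and its 3 arrays in CpG-injected B6 CD8+ cDC read 7.11, 8.25 and 8.54. Ctsh stood at 0.06 in B6 CD11b+ cDC as deposited and at -0.25 after quantile normalization (adjusted p = 0.0116).

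**Figure D2:**
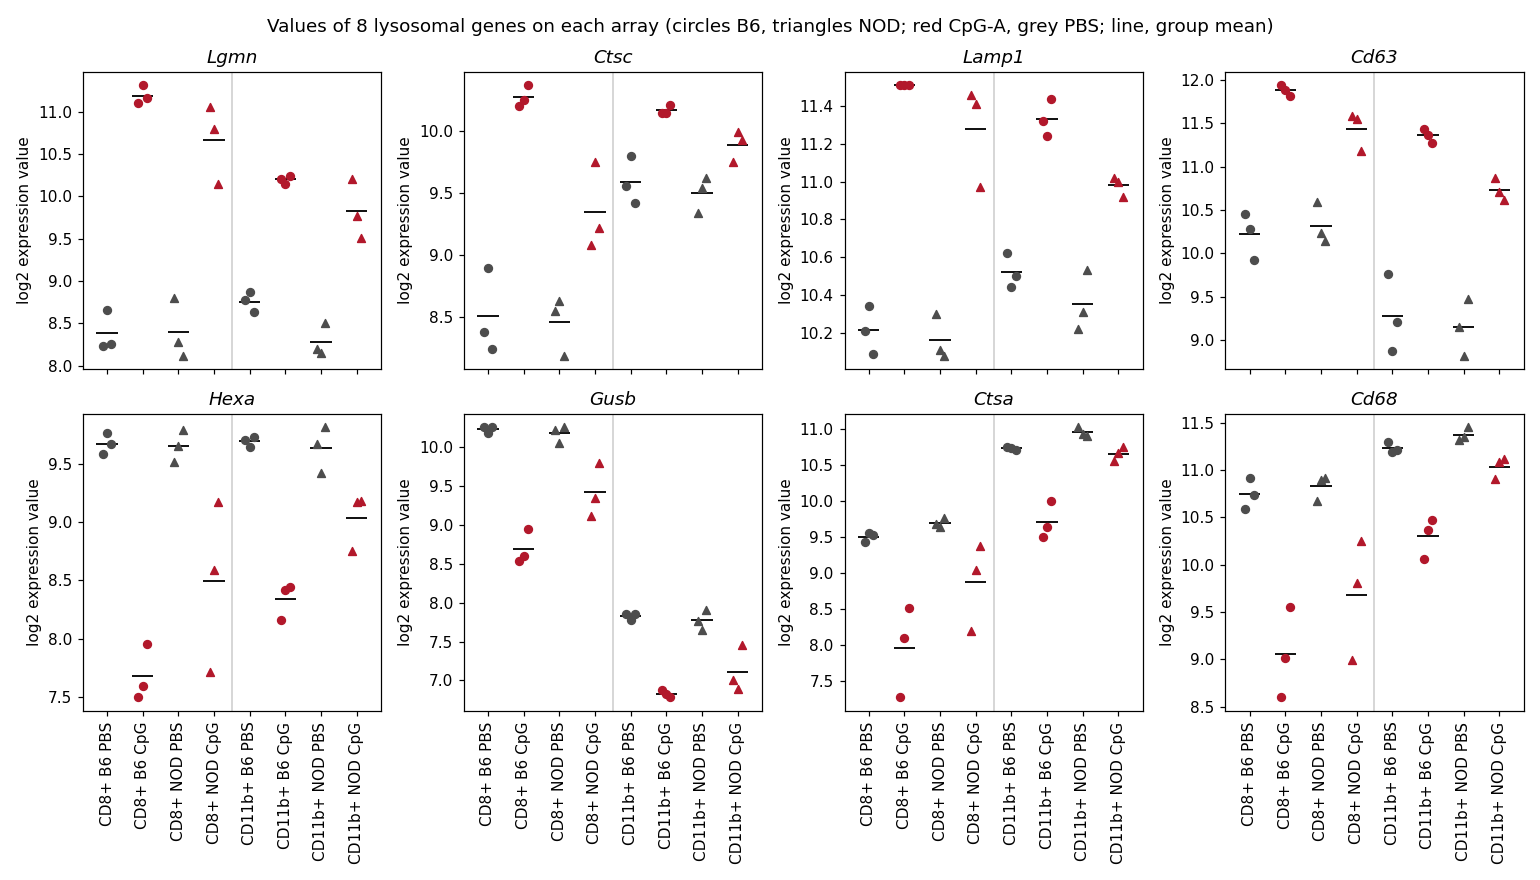
Log2 expression value of 8 genes on each of the 24 arrays (points) by group (horizontal axis), with the group mean as a line, circles for B6, triangles for NOD, red for CpG-A and grey for PBS. The upper row shows Lgmn, Ctsc, Lamp1 and Cd63, whose CpG arrays lie above the PBS arrays in CD8+ cDC of both strains, and the lower row Hexa, Gusb, Ctsa and Cd68, whose CpG arrays lie below them there. The 3 arrays of CpG-injected NOD CD8+ cDC spread widely for Ctsa and Cd68, with replicate 1 at the bottom.

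Of the 6 glycosidases, saposins and granulins, those that rose and fell were 2 and 3 in B6 CD8+, 2 and 4 in NOD CD8+, 2 and 3 in B6 CD11b+ and 2 and 1 in NOD CD11b+ cDC. Hexa, the alpha subunit of beta-hexosaminidase, fell in B6 CD8+ cDC from 9.58, 9.76 and 9.67 to 7.50, 7.60 and 7.96 (-1.99 ± 0.22, a 3.96-fold decrease, adjusted p = 8.64e-08). In NOD CD8+ cDC it fell from 9.51, 9.65 and 9.79 to 7.72, 8.59 and 9.17 (-1.16 ± 0.22), and in B6 CD11b+ cDC from 9.70, 9.64 and 9.73 to 8.16, 8.42 and 8.44 (-1.35 ± 0.22). No PBS array overlapped a CpG array in these. In NOD CD11b+ cDC the values went from 9.67, 9.42 and 9.81 to 8.75, 9.17 and 9.18, a difference of -0.60 ± 0.22 that did not pass (adjusted p = 0.0705). Beta-glucuronidase (Gusb) fell in every pair. In CD8+ cDC it fell from 10.26, 10.19 and 10.26 to 8.54, 8.60 and 8.95 in B6 (-1.53 ± 0.15) and from 10.22, 10.06 and 10.26 to 9.12, 9.35 and 9.80 in NOD (-0.76 ± 0.15). Its decrease in CD11b+ cDC was 0.99 in B6 and 0.66 in NOD.

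Acid alpha-glucosidase (Gaa), which degrades glycogen in the lysosome, rose instead. Its values were 7.23, 7.59 and 7.07 after PBS and 8.13, 8.47 and 8.40 after CpG-A in B6 CD8+ cDC (1.04 ± 0.15). The rises were 0.66 ± 0.15 in NOD CD8+, 0.97 ± 0.15 in B6 CD11b+ and 0.89 ± 0.15 in NOD CD11b+ cDC. Progranulin (Grn), a secreted protein that is delivered to lysosomes, rose in all 4 pairs, in CD11b+ cDC from 10.73, 10.60 and 10.77 to 11.76, 11.65 and 11.91 in B6 (1.07 ± 0.10) and from 10.88, 10.48 and 10.85 to 11.88, 11.89 and 11.65 in NOD (1.07 ± 0.10). Its rise in CD8+ cDC was 0.68 in B6 and 0.57 in NOD. The rise in CD8+ minus that in CD11b+ cDC was -0.50 ± 0.14 in NOD, a call that ended in eBayes without the trend, with arrays centred on the genes tested and in a fit of only the groups compared (adjusted p 0.0615 to 0.14) and without replicate 2 or 3 of PBS-injected NOD CD8+ cDC, replicate 1 of CpG-injected NOD CD8+ cDC, replicate 2 of PBS-injected NOD CD11b+ cDC or replicate 1 or 2 of CpG-injected NOD CD11b+ cDC (adjusted p 0.051 to 0.0908), and -0.39 ± 0.14 in B6 (adjusted p = 0.0635).

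Prosaposin (Psap) fell in 3 pairs. In B6 CD8+ cDC it went from 12.48, 12.55 and 12.57 to 11.74, 11.72 and 11.96 (-0.73 ± 0.08), and in NOD CD8+ cDC from 12.55, 12.60 and 12.58 to 12.17, 12.34 and 12.49 (-0.24 ± 0.08). In B6 CD11b+ cDC it fell by 0.31. Calls of the small decreases ended, for NOD CD8+ cDC, in eBayes without the trend, with arrays centred on the genes tested and in a fit of only the groups compared (adjusted p 0.0516 to 0.339) and without replicate 1 of CpG-injected NOD CD8+ cDC (-0.16, adjusted p = 0.129), and for B6 CD11b+ cDC with arrays centred on the genes tested (-0.19, adjusted p = 0.0662). Galactosylceramidase (Galc) passed in 1 comparison, falling in NOD CD8+ cDC (-0.73 ± 0.20), and this ended in a fit of only the groups compared (-0.73, adjusted p = 0.0504) and without replicate 2 of CpG-injected NOD CD8+ cDC (-0.52, adjusted p = 0.0552). In B6 CD8+ cDC it did not pass, with a 95% interval of -0.42 to 0.42, and the difference between strains was not past the threshold (-0.73 ± 0.29, adjusted p = 0.17).

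Of the 6 membrane proteins, those that rose and fell were 3 and 3 in B6 CD8+, 3 and 3 in NOD CD8+, 3 and 1 in B6 CD11b+ and 3 and 0 in NOD CD11b+ cDC. Lamp1 and Lamp2, the main lysosome-associated membrane proteins, and the tetraspanin Cd63 rose in all 4 pairs. Lamp1 went from 10.21, 10.34 and 10.09 to 11.51, 11.51 and 11.51 in B6 CD8+ cDC (1.30 ± 0.11, adjusted p = 9.06e-10). In NOD CD8+ cDC it went from 10.30, 10.11 and 10.08 to 11.46, 11.41 and 10.97 (1.12 ± 0.11). Its rise in CD11b+ cDC was 0.82 ± 0.11 in B6 and 0.63 ± 0.11 in NOD, without overlap. Lamp2 rose by 1.23, 0.83, 0.92 and 0.62 in B6 CD8+, NOD CD8+, B6 CD11b+ and NOD CD11b+ cDC. Cd63 went in CD11b+ cDC from 9.76, 8.87 and 9.21 to 11.44, 11.37 and 11.28 in B6 (2.09 ± 0.18, 4.25-fold) and from 9.15, 8.82 and 9.47 to 10.87, 10.71 and 10.62 in NOD (1.59 ± 0.18). Its rise in CD8+ cDC was 1.66 ± 0.18 in B6 and 1.12 ± 0.18 in NOD, and the differences between subsets did not pass (adjusted p = 0.31 in B6 and 0.306 in NOD).

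The other 3 membrane proteins fell in CD8+ cDC of both strains. Cd68, a LAMP family protein of macrophages and dendritic cells, went from 10.59, 10.92 and 10.74 to 8.60, 9.02 and 9.55 in B6 (-1.69 ± 0.22) and from 10.67, 10.89 and 10.92 to 8.99, 9.81 and 10.25 in NOD (-1.14 ± 0.22). Replicate 1 was the lowest CpG array in both. It also fell in B6 CD11b+ cDC, from 11.29, 11.19 and 11.21 to 10.06, 10.37 and 10.47 (-0.93 ± 0.22), and its NOD CD11b+ difference was -0.35 ± 0.22 (adjusted p = 0.336). Laptm5, a lysosomal protein that promotes the degradation of immune receptors, went from 12.46, 12.54 and 12.51 to 11.36, 11.34 and 11.84 in B6 CD8+ cDC (-0.99 ± 0.10). In NOD CD8+ cDC it fell by 0.39, and in CD11b+ cDC the differences were -0.11 in B6 and 0.11 in NOD. The response in CD8+ minus that in CD11b+ cDC was -0.88 ± 0.14 in B6 and -0.50 ± 0.14 in NOD, and the NOD call ended without the filter, after quantile normalization, with arrays centred on all probe sets, in eBayes without the trend, with arrays centred on the genes tested and in a fit of only the groups compared (adjusted p 0.0545 to 0.0816) and without replicate 1, 2 or 3 of PBS-injected NOD CD8+ cDC, replicate 1 or 2 of CpG-injected NOD CD8+ cDC, replicate 1, 2 or 3 of PBS-injected NOD CD11b+ cDC or replicate 1, 2 or 3 of CpG-injected NOD CD11b+ cDC (adjusted p 0.055 to 0.115). Scarb2, the receptor that carries glucocerebrosidase to the lysosome, fell by 0.68 in B6 and 0.47 in NOD CD8+ cDC. The latter ended in a fit of only the groups compared (-0.47, adjusted p = 0.107) and without replicate 1 of CpG-injected NOD CD8+ cDC (-0.26, adjusted p = 0.0753).

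Of the 6 proton pump genes, those that rose and fell were 1 and 1 in B6 CD8+, 1 and 1 in NOD CD8+, 0 and 1 in B6 CD11b+ and 0 and 0 in NOD CD11b+ cDC. Atp6v1b2, the B2 subunit of the catalytic sector, rose in CD8+ cDC. Its values in B6 were 9.08, 9.23 and 9.03 after PBS and 10.00, 10.21 and 10.04 after CpG-A (0.97 ± 0.11, adjusted p = 1.88e-07). In NOD they were 9.13, 9.06 and 9.04 and 10.18, 9.90 and 9.63 (0.83 ± 0.11). In CD11b+ cDC the differences were 0.18 ± 0.11 and 0.15 ± 0.11 and did not pass. The rise was larger in CD8+ than in CD11b+ cDC by 0.79 ± 0.16 in B6 and 0.68 ± 0.16 in NOD, and the NOD call ended in a fit of only the groups compared (0.68, adjusted p = 0.077). Atp6ap1, an accessory subunit, fell by 0.74 in B6 CD8+, 0.64 in NOD CD8+ and 0.50 in B6 CD11b+ cDC. The last of these ended without replicate 1 of CpG-injected B6 CD11b+ cDC (-0.42, adjusted p = 0.0576). Differences of Atp6v0d1, Atp6v1a, Atp6v1c1 and Atp6v1h lay between -0.27 and 0.27 in all 4 pairs.

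Tfeb, the transcription factor gene named above, fell in B6 cells of both subsets, while Mcoln2 passed in no pair. In CD8+ cDC it went from 7.06, 7.30 and 7.01 to 6.43, 6.70 and 6.68 (-0.52 ± 0.12) and in CD11b+ cDC from 8.17, 8.17 and 8.15 to 7.62, 7.48 and 7.78 (-0.54 ± 0.12). In NOD cells the differences were -0.21 ± 0.12 and 0.04 ± 0.12, and the strain difference in response did not pass (adjusted p = 0.325 in CD8+ and 0.051 in CD11b+ cDC). Mcoln1, the lysosomal calcium channel TRPML1, fell in B6 CD11b+ cDC (-0.40 ± 0.12), and this ended with arrays centred on the genes tested (-0.28, adjusted p = 0.0901) and without replicate 1 of PBS-injected B6 CD11b+ cDC or replicate 2 of CpG-injected B6 CD11b+ cDC (adjusted p 0.0513 to 0.0848).

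The differences in NOD CD8+ cDC rest in part on the CpG arrays that stood apart. With each of those 3 arrays left out in turn, 16 of the 20 called members passed every time. Among proteases and the reductase the rise of Lgmn was then 2.07 to 2.52, and the rises were 0.69 to 1.03 for Ctsc, 0.31 to 0.46 for Ctsz, 0.22 to 0.28 for Ctss and 0.34 to 0.46 for Ifi30. Those of other members were 0.53 to 0.79 for Gaa, 0.53 to 0.61 for Grn, 1.03 to 1.27 for Lamp1, 0.74 to 0.93 for Lamp2, 1.05 to 1.25 for Cd63 and 0.69 to 0.96 for Atp6v1b2. Every rise listed kept its call. Among decreases that kept it the differences were -1.49 to -0.77 for Hexa, -0.95 to -0.61 for Gusb, -1.43 to -0.80 for Cd68, -0.52 to -0.28 for Laptm5 and -0.78 to -0.44 for Atp6ap1. The 4 that lost it ranged over -1.09 to -0.49 for Ctsa, -0.99 to -0.52 for Galc, -0.32 to -0.16 for Psap and -0.64 to -0.26 for Scarb2.

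The comparison of the subsets asks which lysosomal genes mark each kind of dendritic cell. Under PBS in B6 mice 7 members were higher and 10 lower in CD8+ than in CD11b+ cDC, where 9.57% and 12.2% of all genes tested were (53.1% against 21.7% in either direction). Under PBS in NOD mice 8 members were higher and 8 lower, where 10.6% and 11.2% of all genes tested were (50% against 21.8% in either direction). After CpG-A in B6 mice 8 members were higher and 10 lower, where 12.8% and 24.5% of all genes tested were (56.2% against 37.4% in either direction), and in NOD mice 9 members were higher and 13 lower, where 14.5% and 24.1% of all genes tested were (68.8% against 38.6% in either direction). The subsets did not overlap for 22, 22, 21 and 19 members in that order, against 41.4%, 37.9%, 47.9% and 43.4% of all genes. Without replicate 1, 2 or 3 of CpG-injected NOD CD8+ cDC the last count was 18, 20 or 24 in all. No array is used in more than 1 of these comparisons, which share their arrays with those of CpG-A and PBS. They need not be independent either, since same-numbered CD8+ arrays of both strains deviated together (correlation 0.2 to 0.544). After CpG-A all 10 NK cell markers were lower in CD8+ cDC of B6 mice (median -3.70) and 6 of 10 in NOD mice (median -0.77), and their part in these counts was not tested. Among the 11 protease and reductase genes 0 were higher in CD8+ cDC under PBS, with 8 lower in B6 and 7 lower in NOD. Among the 6 glycosidases, saposins and granulins, 4 were higher and 0 lower in either strain. These 4 include Galc, which lay over the array median on no CD11b+ array and entered the test through its CD8+ arrays. Its place here and among the genes named next is a description, as is that of Mcoln2 in the NOD counts. In all 4 comparisons Gusb, Galc, Psap, Cd63 and Atp6v1b2 were higher in CD8+ cDC (3.47% of all genes), and Ctsa, Ctsd, Ctsh, Ctss, Ifi30 and Tfeb were lower (5.5%).

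Other markers differed between the subsets as well. Under PBS in B6 mice 5 of 11 red pulp macrophage markers were lower in CD8+ cDC (median -0.85, summed level 10.81 to 12.11 against 11.79 to 12.67 in CD11b+ cDC), as were 4 of 6 monocyte markers (11.24 to 11.69 against 11.58 to 11.96) and 4 of 10 NK cell markers (9.41 to 9.75 against 9.82 to 10.67), while 3 of 7 plasmacytoid dendritic cell (pDC) markers were higher. Under PBS in NOD mice 6 of 7 pDC markers were higher in CD8+ cDC (median 0.77, summed level 11.03 to 11.10 against 9.97 to 10.31), 3 of 6 monocyte markers were lower, and of 11 red pulp macrophage markers 2 were higher and 1 lower. After CpG-A 5 of 6 monocyte markers were lower in B6 and 4 of 6 in NOD mice, where 6 of 7 pDC markers were higher. The part of these in the counts was not tested either.

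Gusb and Galc, both glycosidases, were much higher in CD8+ cDC, and the CD11b+ values of Galc all lay under the array median. Gusb under PBS read 10.26, 10.19 and 10.26 in CD8+ and 7.85, 7.78 and 7.85 in CD11b+ cDC of B6 (2.41 ± 0.15, 5.32-fold), and 10.22, 10.06 and 10.26 and 7.76, 7.65 and 7.91 in NOD (2.41 ± 0.15). Galc, which cleaves galactosylceramide, read 7.58, 7.80 and 7.68 and 5.45, 5.75 and 5.31 in B6 (2.19 ± 0.20), and 7.40, 7.21 and 7.61 and 4.78, 5.34 and 5.27 in NOD (2.27 ± 0.20). The subsets lay far apart on every array for both genes. After CpG-A the difference of Gusb was 1.87 in B6 and 2.31 in NOD, and that of Galc 2.19 and 1.66. Psap was higher in CD8+ cDC by 0.70 ± 0.08 in B6 and 1.12 ± 0.08 in NOD under PBS. After CpG-A its difference in B6 was 0.28, which ended without replicate 3 of CpG-injected B6 CD8+ cDC or replicate 2 of CpG-injected B6 CD11b+ cDC (adjusted p 0.0563 to 0.0571), and in NOD 0.91. Cd63 was higher by 0.94 ± 0.18 and 1.18 ± 0.18 under PBS, and by 0.52 and 0.71 after CpG-A, the B6 call of which ended without replicate 1 or 2 of CpG-injected B6 CD8+ cDC or replicate 2 or 3 of CpG-injected B6 CD11b+ cDC (adjusted p 0.065 to 0.0885).

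Under PBS 8 of the 10 members lower in CD8+ cDC of B6 mice, and 7 of the 8 in NOD mice, were genes for proteases or the reductase. Ctsa under PBS read 9.43, 9.56 and 9.53 in CD8+ and 10.75, 10.74 and 10.72 in CD11b+ cDC of B6 (-1.23 ± 0.23), and 9.69, 9.64 and 9.77 and 11.03, 10.94 and 10.91 in NOD (-1.26 ± 0.23). Under PBS, Ctsc differed by -1.09 ± 0.16 in B6 and -1.04 ± 0.16 in NOD. In CpG-injected B6 mice the subsets read 10.20, 10.25 and 10.37 and 10.15, 10.15 and 10.21 for Ctsc (0.10 ± 0.16, adjusted p = 0.666), with a 95% interval of -0.24 to 0.44. Ctsd was lower in CD8+ cDC under PBS, with differences of -1.08 ± 0.29 in B6 and -0.94 ± 0.29 in NOD. Its B6 call ended without replicate 1 of PBS-injected B6 CD8+ cDC (-0.81, adjusted p = 0.0724) and its NOD call without replicate 1 of PBS-injected NOD CD8+ cDC or replicate 2 or 3 of PBS-injected NOD CD11b+ cDC (adjusted p 0.0736 to 0.075). Ctss differed by -0.40 and -0.39, Ctsh by -0.55 and -0.41, and Tpp1 by -0.68 and -0.62. Ifi30 differed by -0.30 in B6 and -0.28 in NOD, and these calls ended without replicate 3 of PBS-injected B6 CD8+ cDC or replicate 1 of PBS-injected B6 CD11b+ cDC (adjusted p 0.0559 to 0.0589) for B6 and with arrays centred on all probe sets (-0.29, adjusted p = 0.0518) and without replicate 2 or 3 of PBS-injected NOD CD8+ cDC or replicate 3 of PBS-injected NOD CD11b+ cDC (adjusted p 0.0537 to 0.114) for NOD. Lgmn did not pass under PBS (-0.38 and 0.12) and was higher in CD8+ cDC after CpG-A, by 0.99 ± 0.20 in B6 and 0.84 ± 0.20 in NOD.

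Atp6v1b2 was higher in CD8+ cDC by 0.33 in B6 and 0.49 in NOD under PBS, and by 1.11 ± 0.11 and 1.17 ± 0.11 after CpG-A. The call in PBS-injected B6 mice ended without the filter (0.33, adjusted p = 0.0638), with arrays centred on all probe sets (0.32, adjusted p = 0.0659) and without replicate 1 or 2 of PBS-injected B6 CD8+ cDC or replicate 2 or 3 of PBS-injected B6 CD11b+ cDC (adjusted p 0.0757 to 0.164). Tfeb read 7.06, 7.30 and 7.01 in CD8+ and 8.17, 8.17 and 8.15 in CD11b+ cDC of PBS-injected B6 mice (-1.04 ± 0.12), and differed by -0.67 ± 0.12 in NOD, -1.02 in B6 after CpG-A and -0.92 in NOD after CpG-A. Cd68 and Laptm5 did not pass under PBS. After CpG-A both were lower in CD8+ cDC, with differences of -1.24 ± 0.22 in B6 and -1.35 ± 0.22 in NOD for Cd68, and of -1.07 ± 0.10 and -0.74 ± 0.10 for Laptm5. Mcoln2, whose CD11b+ values all lay under the array median, was higher in CD8+ cDC of NOD mice, by 0.98 ± 0.16 under PBS and 0.65 ± 0.16 after CpG-A. The latter ended in a fit of only the groups compared (0.65, adjusted p = 0.0559). Without each array of CpG-injected NOD CD8+ cDC in turn, 17 of the 22 members called in CpG-injected NOD mice passed every time, all but Ctsb, Ctsc, Ifi30, Gaa and Lamp1. Of the genes higher in CD8+ cDC the differences were then 2.12 to 2.46 for Gusb, 1.40 to 1.88 for Galc, 0.84 to 0.99 for Psap, 0.63 to 0.84 for Cd63, 0.65 to 1.10 for Lgmn, 1.03 to 1.31 for Atp6v1b2 and 0.44 to 0.78 for Mcoln2. For those lower they were -0.97 to -0.86 for Tfeb, -1.63 to -1.0 for Cd68 and -0.87 to -0.63 for Laptm5.

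**Figure D3:**
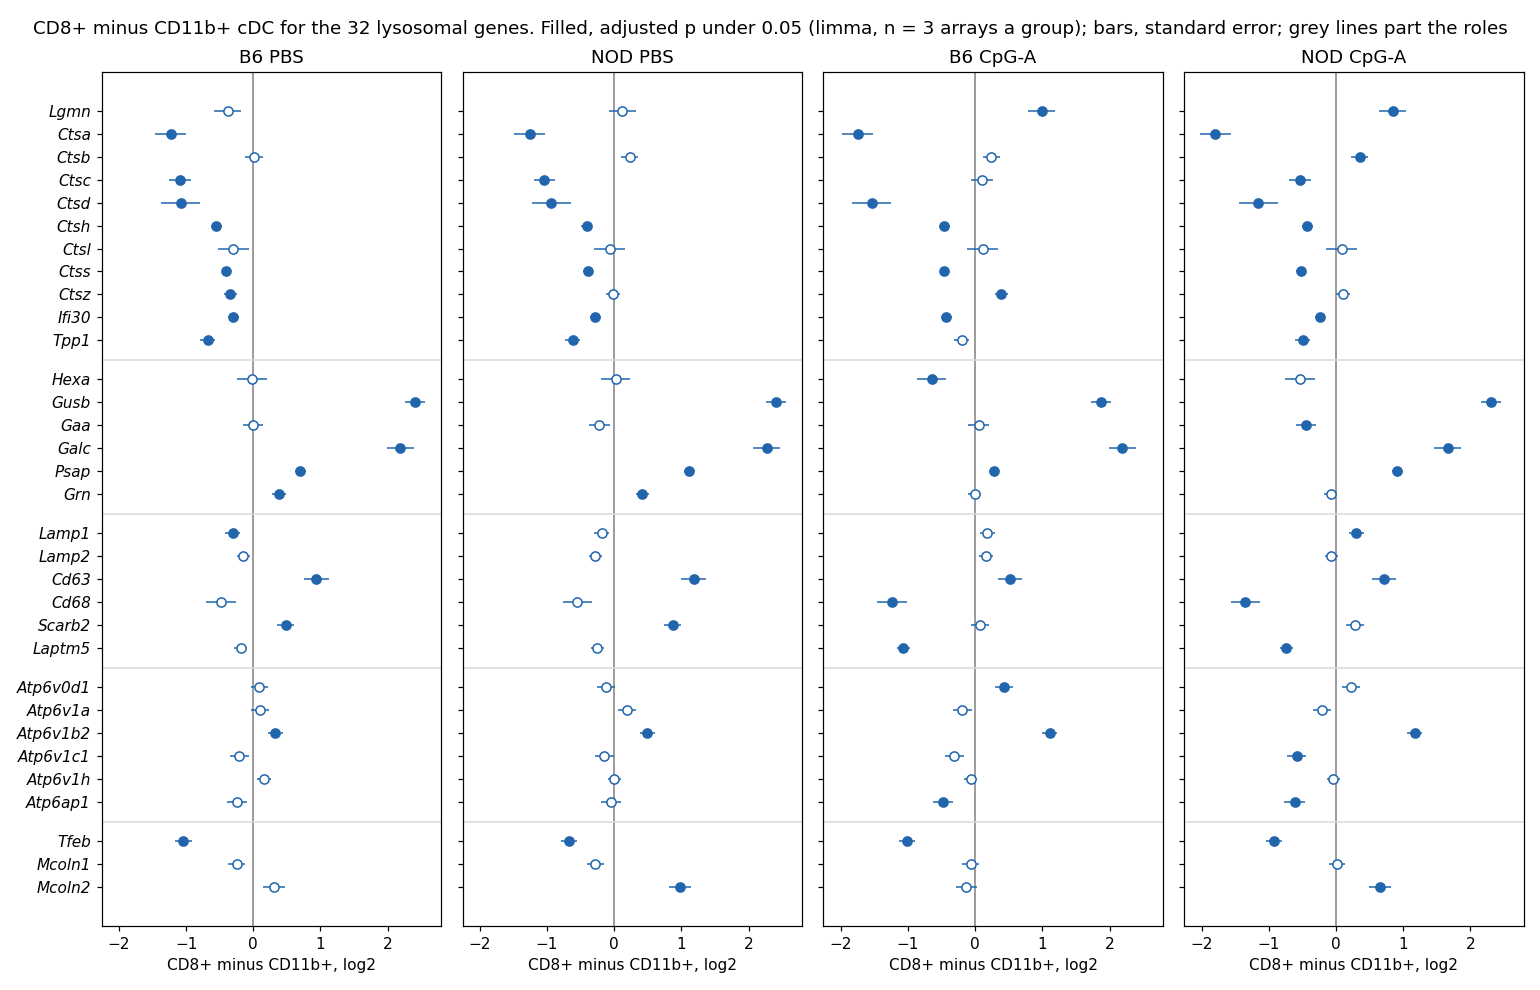
Difference of CD8+ from CD11b+ cDC on the log2 scale (horizontal axis) for each of the 32 genes (vertical axis, by role) in B6 and NOD mice after PBS or CpG-A. Points are differences, bars standard errors, and filled points passed an adjusted p of 0.05. Gusb and Galc lie at 2.41 and 2.19 in PBS-injected B6 mice, and most proteases lie left of 0.

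The difference between the subsets in their response to CpG-A was tested directly. In B6 mice 5 members responded more positively in CD8+ cDC (Lgmn, Ctsc, Ctsz, Lamp1 and Atp6v1b2) and 2 more negatively (Psap and Laptm5), where 5.84% and 7.53% of all genes did (21.9% against 13.4% in either direction). In NOD mice Atp6v1b2 was the positive one and Grn and Laptm5 the negative ones, where 2.68% and 4.12% of all genes passed (9.38% against 6.8%). For Lamp1 the B6 difference of 0.49 ± 0.15 ended without the filter, with arrays centred on all probe sets and in eBayes without the trend (adjusted p 0.0548 to 0.0607) and without replicate 1 or 3 of PBS-injected B6 CD8+ cDC, replicate 1 or 2 of CpG-injected B6 CD8+ cDC, replicate 1 or 3 of PBS-injected B6 CD11b+ cDC or replicate 1 or 2 of CpG-injected B6 CD11b+ cDC (adjusted p 0.0599 to 0.1), and for Psap that of -0.42 ± 0.11 ended after quantile normalization, in eBayes without the trend and with arrays centred on the genes tested (adjusted p 0.0506 to 0.0837). With the replicate number as a block the counts were 11 in B6 and 7 in NOD, where 17.9% and 10.2% of all genes passed. With arrays centred on the genes tested 6 were positive and 1 negative in B6, and 2 positive and 0 negative in NOD. In NOD the count was 1 without replicate 1 and 10 without replicate 3 of CpG-injected NOD CD8+ cDC, and without each of its arrays in turn the differences were -0.55 to -0.46 for Grn, -0.63 to -0.39 for Laptm5 and 0.54 to 0.82 for Atp6v1b2.

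NOD and B6 cells were compared to see whether the diabetes-prone strain differs in its lysosomal genes. After PBS few members differed. In CD8+ cDC 1 member was higher and 0 lower in NOD, where 2.03% and 1.59% of all genes were (3.12% against 3.62% in either direction). In CD11b+ cDC 0 were higher and 1 lower, where 2.41% and 3.18% of all genes were (3.12% against 5.59%). At an unadjusted p under 0.05 in limma there were 1 and 2. The strains did not overlap for 6 and 9 members, against 19.7% and 23.5% of all genes. The member higher in CD8+ cDC was Mcoln2, an endolysosomal channel of immune cells, which read 5.72, 5.86 and 5.73 in B6 and 6.46, 6.51 and 6.18 in NOD (0.61 ± 0.16, adjusted p = 0.0324). The 2 strains did not overlap, but the call ended after quantile normalization (0.58, adjusted p = 0.0562), with arrays centred on all probe sets (0.61, adjusted p = 0.055) and without replicate 1, 2 or 3 of PBS-injected B6 CD8+ cDC or replicate 1 or 2 of PBS-injected NOD CD8+ cDC (adjusted p 0.0588 to 0.144), and Mcoln2 is not tested under the stricter filter. Of the 3 B6 arrays 2 read Mcoln2 under the array median. In the same comparison 3 of 7 B cell markers were higher in NOD and 0 lower (median 1.15, all 7 differences above 0), with a summed level of 9.80 to 10.62 over the B6 arrays and 10.69 to 11.84 over the NOD arrays, and 1 of 4 plasma cell markers was higher (8.83 to 9.15 and 9.43 to 9.78). Their part in the result was not tested. The member lower in CD11b+ cDC was Psap, at 11.84, 11.78 and 11.89 in B6 and 11.60, 11.33 and 11.44 in NOD (-0.38 ± 0.08, adjusted p = 0.00306). In that comparison 6 of 11 red pulp macrophage markers tested were also lower in NOD (median -1.20), with a summed level of 11.79 to 12.67 over the B6 arrays and 11.29 to 11.45 over the NOD arrays, and 4 of 10 NK cell markers were lower too (median -0.92, summed level 9.82 to 10.67 and 9.26 to 9.50). Their part in the result was not tested. Over all 32 members the differences between strains under PBS ran from -0.28 to 0.61 in CD8+ and from -0.48 to 0.24 in CD11b+ cDC.

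After CpG-A more members differed. In CD8+ cDC 9 members were higher and 4 lower in NOD, where 12.4% and 7.84% of all genes tested were (40.6% against 20.2% in either direction), and the arrays did not overlap for 13 (24% of all genes). The split was 8 and 8 with arrays centred on the genes tested, which moved all differences here by -0.12. Markers moved in this comparison as well. Of 10 markers of CD8+ cDC 6 were higher in NOD (median 0.83, summed level 13.18 to 13.51 in B6 and 13.39 to 13.96 in NOD), as were 3 of 4 plasma cell markers (8.11 to 8.54 and 8.73 to 9.53), 2 of 7 B cell markers (9.03 to 9.98 and 10.26 to 11.58) and 2 of 7 pDC markers (11.85 to 12.21 and 11.82 to 12.25). Their part in the members' differences was not tested. Ctsa read 7.27, 8.10 and 8.51 in B6 and 8.19, 9.04 and 9.38 in NOD (0.91 ± 0.23), and Hexa 7.50, 7.60 and 7.96 and 7.72, 8.59 and 9.17 (0.81 ± 0.22). The strains overlapped for both, with replicate 1 lowest in each strain for Ctsa. Replicate numbers pair the arrays of this comparison by the correlation of their deviations in these same values, though the titles do not say what a number marks. Within the pairs NOD minus B6 was 0.92, 0.93 and 0.87 for Ctsa and 0.23, 1.00 and 1.20 for Hexa, above 0 in all 3 for both. These paired differences are a description and not a separate test. For Gusb the values were 8.54, 8.60 and 8.95 and 9.12, 9.35 and 9.80 (0.72 ± 0.15), and for Psap 11.74, 11.72 and 11.96 and 12.17, 12.34 and 12.49 (0.53 ± 0.08), where every NOD array lay above every B6 array. Also higher in NOD were Mcoln2 (0.81), Laptm5 (0.63), Cd68 (0.63), Tfeb (0.52) and Scarb2 (0.39). Mcoln2 lay over the array median on 0 of the 3 B6 arrays and on all 3 NOD arrays here. It entered the test mainly through NOD CD8+ arrays. Its place in the count is thus a description, and its difference has no exact size. Lower in NOD was Ctsc, at 10.20, 10.25 and 10.37 in B6 and 9.08, 9.75 and 9.22 in NOD (-0.92 ± 0.16), as were Galc (-1.01), Ctsz (-0.53) and Lamp2 (-0.33).

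These calls in CD8+ cDC depend on how the spread is estimated. Without each array of CpG-injected NOD CD8+ cDC in turn, 8 of the 13 passed every time, with differences of 0.53 to 0.87 for Gusb, 0.45 to 0.61 for Psap, 0.59 to 0.94 for Mcoln2, 0.50 to 0.74 for Laptm5, 0.48 to 0.59 for Tfeb, -1.12 to -0.79 for Ctsc, -1.27 to -0.80 for Galc and -0.60 to -0.45 for Ctsz. The other 5 lost the call without at least 1 of them, at 0.65 to 1.25 for Ctsa, 0.47 to 1.19 for Hexa, 0.34 to 0.97 for Cd68, 0.23 to 0.60 for Scarb2 and -0.42 to -0.23 for Lamp2. Mcoln2, under the array median on the B6 arrays, is counted here as a description. In a fit of only the 6 arrays compared, 2 of the 13 passed, Ctsc (adjusted p = 0.0276) and Psap (adjusted p = 0.0332). The adjusted p of the others was then between 0.0523 (Galc) and 0.326 (Cd68). The count was 20 without replicate 1, 12 without replicate 2 and 8 without replicate 3 of CpG-injected NOD CD8+ cDC, and 8 without replicate 1 of CpG-injected B6 CD8+ cDC. Leaving out 1 array ended the call of Ctsa without replicate 1 of B6 (0.56, adjusted p = 0.083) or replicate 3 of NOD (0.65, adjusted p = 0.0843), and that of Hexa without the same arrays (0.71, adjusted p = 0.0609, and 0.47, adjusted p = 0.13). The calls of Cd68, Scarb2 and Lamp2 ended under more of the alternatives. Cd68 ended without the filter, with arrays centred on all probe sets, in eBayes without the trend and in a fit of only the groups compared (adjusted p 0.0546 to 0.326) and without replicate 1 or 2 of CpG-injected B6 CD8+ cDC or replicate 2 or 3 of CpG-injected NOD CD8+ cDC (adjusted p 0.111 to 0.348), Scarb2 without the filter, with arrays centred on all probe sets, with arrays centred on the genes tested and in a fit of only the groups compared (adjusted p 0.0619 to 0.309) and without replicate 1 or 2 of CpG-injected B6 CD8+ cDC or replicate 2 or 3 of CpG-injected NOD CD8+ cDC (adjusted p 0.0707 to 0.305), and Lamp2 with arrays centred on all probe sets (-0.30, adjusted p = 0.0755), in a fit of only the groups compared (-0.33, adjusted p = 0.212) and without replicate 1, 2 or 3 of CpG-injected B6 CD8+ cDC or replicate 3 of CpG-injected NOD CD8+ cDC (adjusted p 0.0509 to 0.21).

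In CD11b+ cDC after CpG-A 5 members were higher and 2 lower in NOD, where 13.9% and 9.22% of all genes tested were (21.9% against 23.2% in either direction), and the arrays did not overlap for 17 (40.9% of all genes). The split was 4 and 3 with arrays centred on the genes tested and 5 and 1 with arrays centred on all probe sets. Ctsa read 9.50, 9.64 and 10.00 in B6 and 10.56, 10.67 and 10.76 in NOD (0.95 ± 0.23, adjusted p = 0.00443), Hexa 8.16, 8.42 and 8.44 and 8.75, 9.17 and 9.18 (0.69 ± 0.22), and Cd68 10.06, 10.37 and 10.47 and 10.90, 11.08 and 11.11 (0.73 ± 0.22). For these genes every NOD array lay above every B6 array. Tfeb was higher by 0.43 and Laptm5 by 0.30. Cd63 was lower in NOD, at 11.44, 11.37 and 11.28 in B6 and 10.87, 10.71 and 10.62 in NOD (-0.63 ± 0.18), and Lamp1 as well (-0.35 ± 0.11). Calls ended for Hexa without replicate 1 of CpG-injected B6 CD11b+ cDC or replicate 2 or 3 of CpG-injected NOD CD11b+ cDC (adjusted p 0.092 to 0.109), for Cd68 without replicate 1 of CpG-injected B6 CD11b+ cDC or replicate 2 or 3 of CpG-injected NOD CD11b+ cDC (adjusted p 0.0558 to 0.0944), for Cd63 without replicate 1 of CpG-injected B6 CD11b+ cDC or replicate 3 of CpG-injected NOD CD11b+ cDC (adjusted p 0.0588 to 0.0608), for Tfeb without replicate 2 of CpG-injected B6 CD11b+ cDC or replicate 2 of CpG-injected NOD CD11b+ cDC (adjusted p 0.0654 to 0.0966), for Laptm5 without the filter, in eBayes without the trend and with arrays centred on the genes tested (adjusted p 0.0516 to 0.0782) and without replicate 1 or 2 of CpG-injected B6 CD11b+ cDC or replicate 1, 2 or 3 of CpG-injected NOD CD11b+ cDC (adjusted p 0.0584 to 0.106), and for Lamp1 with arrays centred on all probe sets (-0.30, adjusted p = 0.0602) and without replicate 3 of CpG-injected B6 CD11b+ cDC or replicate 3 of CpG-injected NOD CD11b+ cDC (adjusted p 0.0679 to 0.0857). With 1 array left out the count was 3 to 6. Ctsw differed here by -2.17 ± 0.23, and 9 of 10 NK cell markers were lower in NOD (median -3.62, summed level 13.52 to 14.40 in B6 and 10.87 to 10.97 in NOD). The summed level of CD11b+ cDC markers was 11.59 to 11.85 in B6 and 12.49 to 12.66 in NOD. For markers of cDC in general it was 13.29 to 13.57 and 13.64 to 13.74. Plasma cell markers summed to 8.74 to 9.35 and 9.54 to 10.27, and pDC markers to 11.89 to 12.05 and 11.47 to 11.75. The part of all these markers in the result was not tested.

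**Figure D4:**
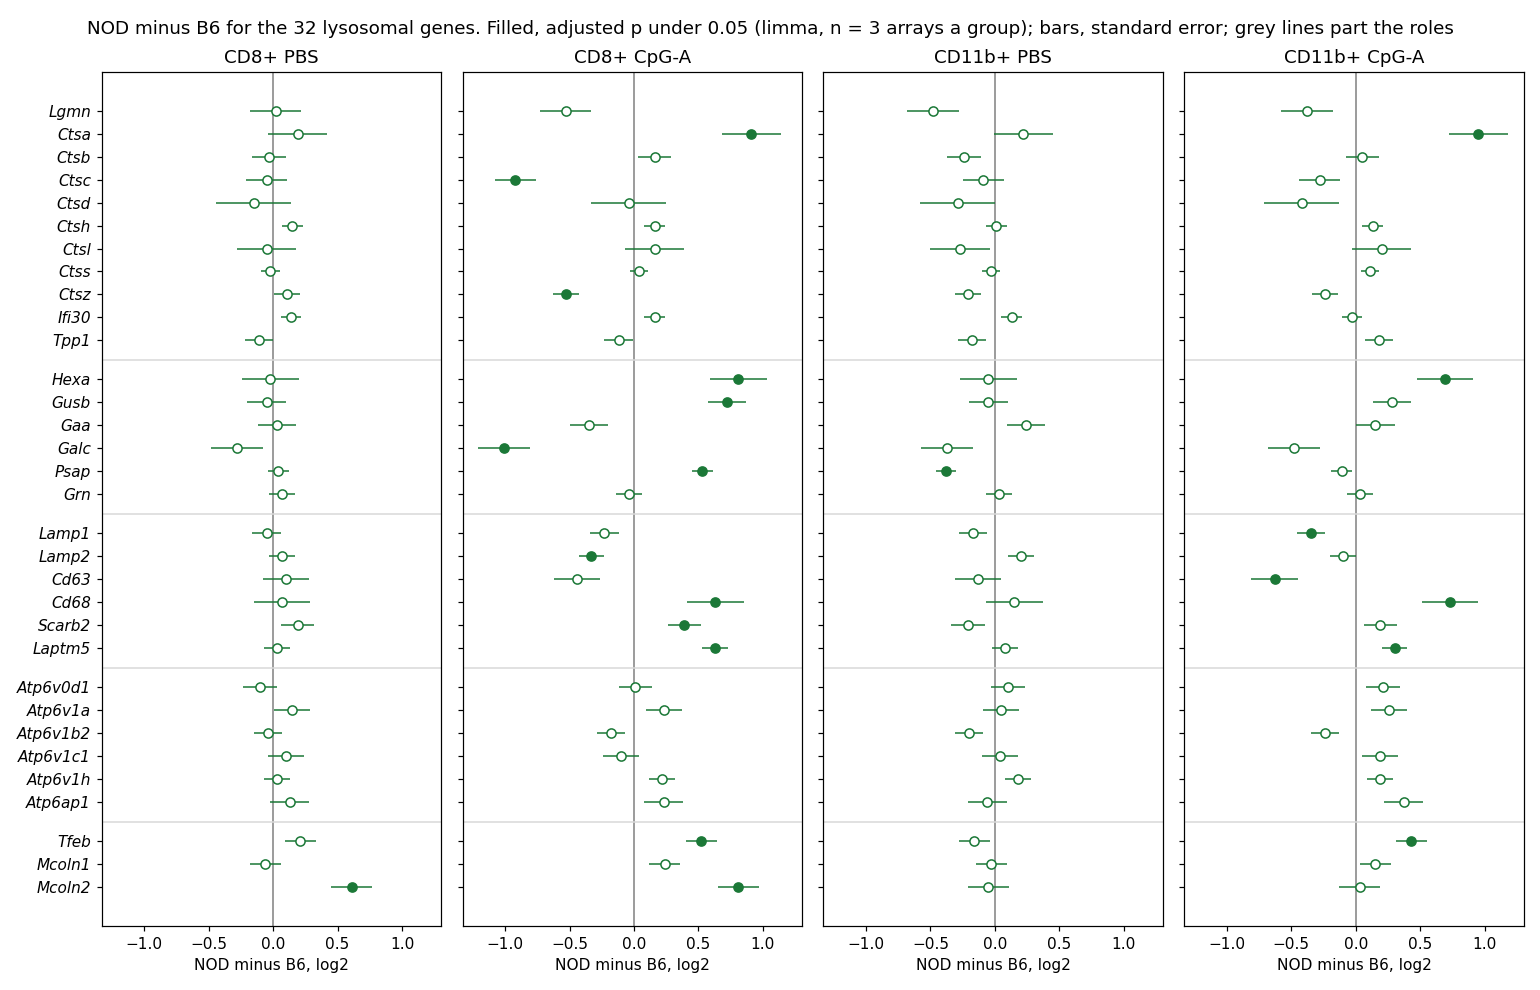
Difference of NOD from B6 on the log2 scale (horizontal axis) for each of the 32 genes (vertical axis, by role) in CD8+ and CD11b+ cDC after PBS or CpG-A. Points are differences, bars standard errors, and filled points passed an adjusted p of 0.05. After PBS 1 point in each subset is filled, and after CpG-A 13 in CD8+ and 7 in CD11b+ cDC are.

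The strain difference in the response to CpG-A was tested as an interaction. In CD8+ cDC 3 members passed with a positive and 2 with a negative difference, where 1.74% and 2.28% of all genes did (15.6% against 4.02% in either direction). Ctsc (-0.87 ± 0.23) and Ctsz (-0.64 ± 0.15) rose less in NOD, and Gusb (0.78 ± 0.21), Psap (0.48 ± 0.11) and Laptm5 (0.60 ± 0.14) fell less. The calls ended for Ctsc after quantile normalization, with arrays centred on all probe sets and in a fit of only the groups compared (adjusted p 0.0737 to 0.159) and without replicate 1 or 3 of PBS-injected B6 CD8+ cDC, replicate 2 or 3 of CpG-injected B6 CD8+ cDC, replicate 1 or 2 of PBS-injected NOD CD8+ cDC or replicate 3 of CpG-injected NOD CD8+ cDC (adjusted p 0.0556 to 0.114), for Ctsz with arrays centred on all probe sets (-0.61, adjusted p = 0.0639), in a fit of only the groups compared (-0.64, adjusted p = 0.0605) and without replicate 2 of CpG-injected B6 CD8+ cDC (-0.55, adjusted p = 0.0554), for Gusb without the filter, with arrays centred on all probe sets and in a fit of only the groups compared (adjusted p 0.0572 to 0.111) and without replicate 1, 2 or 3 of PBS-injected B6 CD8+ cDC, replicate 1 or 2 of CpG-injected B6 CD8+ cDC, replicate 1, 2 or 3 of PBS-injected NOD CD8+ cDC or replicate 2 or 3 of CpG-injected NOD CD8+ cDC (adjusted p 0.0535 to 0.126), for Psap in eBayes without the trend (0.48, adjusted p = 0.0537), in a fit of only the groups compared (0.48, adjusted p = 0.0501) and without replicate 2 of CpG-injected B6 CD8+ cDC or replicate 3 of CpG-injected NOD CD8+ cDC (adjusted p 0.0505 to 0.0532), and for Laptm5 in a fit of only the groups compared (0.60, adjusted p = 0.129) and without replicate 1 or 2 of CpG-injected B6 CD8+ cDC or replicate 3 of CpG-injected NOD CD8+ cDC (adjusted p 0.0567 to 0.068). In a fit of only the 4 groups involved 0 passed (1.46% of all genes), and 2 passed with arrays centred on all probe sets (2.85% of all genes). In the limma fit of all arrays 10 of the 32 had an unadjusted p under 0.05, as did 18.6% of all genes. Without each array of CpG-injected NOD CD8+ cDC in turn the differences were -1.07 to -0.74 for Ctsc, -0.71 to -0.56 for Ctsz, 0.59 to 0.93 for Gusb, 0.40 to 0.56 for Psap and 0.47 to 0.71 for Laptm5, and Ctsz was the one that passed every time. Leaving out replicate 3 of CpG-injected NOD CD8+ cDC left 1, and leaving out its replicate 1 gave 9. With 1 of the 12 arrays left out in turn the count was 0 to 9. In CD11b+ cDC 0 members passed with limma (0%, against 4.38% of all genes, 2.4% positive and 1.98% negative). In that fit 6 of the 32 had an unadjusted p under 0.05, as did 17.7% of all genes. With the replicate number as a block 1 passed (6.82% of all genes), and in a fit of only the groups involved 4 passed (8.42% of all genes). Over all 32 members the response was smaller in size in NOD for 23 in CD8+ and 22 in CD11b+ cDC (71.9% and 68.8%), and over all genes tested this held for 72.4% and 69.1%. The members' share lies near that of all genes.

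Other genes of the lysosome, from lists that hold none of the 32, were counted in the same fit. Of all genes tested 21.1% rose and 36.6% fell after CpG-A in B6 CD8+ cDC, and 15.1% and 25.5% in NOD CD8+ cDC. In CD11b+ cDC the shares were 15.9% and 23% in B6 and 9.7% and 5.73% in NOD. Every list count for CpG-A below stands beside these shares. Of 24 other hydrolases tested, 15 fell and 2 rose after CpG-A in B6 CD8+, 13 and 0 in NOD CD8+, 16 and 0 in B6 CD11b+, and 4 and 1 in NOD CD11b+ cDC. With arrays centred on the genes tested 12 fell and 5 rose, 13 and 1, 15 and 3, and 5 and 1. The steepest decreases in B6 CD8+ cDC were Arsb, an arylsulphatase (-2.25 ± 0.28), the mannosidase Man2b1 (-2.13 ± 0.17), the acid lipase Lipa (-2.03 ± 0.22) and the GM2 activator Gm2a (-1.60 ± 0.15). Lipa also fell by 1.49 in NOD CD8+ and by 1.39 in B6 CD11b+ cDC. After CpG-A 13 of the 24 were higher and 0 lower in NOD than in B6 CD11b+ cDC, among them the acid phosphatase Acp5 (1.55 ± 0.20), Gm2a (1.10 ± 0.15) and Lipa (1.08 ± 0.22). Of all genes tested 13.9% were higher and 9.22% lower there. Centring arrays on the genes tested moved all differences of that comparison by -0.09. NK cell markers there summed to 13.52 to 14.40 in B6 and 10.87 to 10.97 in NOD. CD11b+ cDC markers summed to 11.59 to 11.85 in B6 and 12.49 to 12.66 in NOD. The part of these markers in the hydrolase differences was not tested.

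Membrane proteins and pump subunits outside the 32 were mixed. Of 17 other lysosomal membrane proteins 7 rose and 5 fell in B6 CD8+, 7 and 4 in NOD CD8+, 5 and 4 in B6 CD11b+ and 5 and 1 in NOD CD11b+ cDC. Centring on the genes tested gave 11 and 3, 10 and 3, 8 and 3, and 6 and 1. The cholesterol carrier Npc2 rose by 1.11, 0.87, 1.34 and 1.00, and the cystine exporter Ctns fell by 1.45, 0.82 and 1.05 in the first 3 of these. Of 9 other pump subunits 2 rose in each pair, led in B6 CD8+ cDC by Atp6v0a1 (1.88 ± 0.19), while 3, 1, 1 and 0 fell, or 5, 3, 5 and 3 rose and 2, 0, 1 and 0 fell when centred on the genes tested. In B6 CD8+ cDC 55.6% of these subunits passed as deposited, near the 57.7% of all genes. Of 9 other proteases Scpep1 rose in B6 CD8+ cDC (1.17 ± 0.11), and 5 fell as deposited and 4 when centred on the genes tested. In B6 CD11b+ cDC Ctsw, a cathepsin of cytotoxic lymphocytes, rose by 1.92 ± 0.23. That is the comparison in which all 10 NK cell markers rose, and their part in the value of Ctsw was not tested.

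Several endogenous protease inhibitors rose. Of 6 cystatins and serpins tested 4 rose and 0 fell in B6 CD8+, 3 and 0 in NOD CD8+, 4 and 0 in B6 CD11b+, and 4 and 0 in NOD CD11b+ cDC. Serpinb9, the granzyme B inhibitor, rose by 2.68 ± 0.16, 1.58, 3.44 ± 0.16 and 1.87 in that order. Cstb, an inhibitor of papain-type cathepsins, rose by 0.70, 0.48, 0.91 and 0.85. The cystatin Cst7 rose by 2.25 in B6 and 1.66 in NOD CD11b+ cDC. NK cell markers rose in the same comparisons, in B6 CD11b+ cDC from a summed level of 9.82 to 10.67 to one of 13.52 to 14.40. In NOD CD11b+ cDC the summed level was 9.26 to 9.50 after PBS and 10.87 to 10.97 after CpG-A. Their part in the values of these inhibitors was not tested. Among 16 regulators of lysosomal genes 3 rose and 7 fell in B6 CD8+, 2 and 5 in NOD CD8+, 1 and 8 in B6 CD11b+, and 0 and 0 in NOD CD11b+ cDC. Centred on the genes tested, 6 rose and 5 fell in B6 CD8+ cDC. As deposited 62.5% of the regulators passed there in either direction, near the 57.7% of all genes. Lamtor2 and Lamtor4, parts of the scaffold that holds mTORC1 at the lysosome, fell by 1.65 and 1.07 in B6 CD8+ cDC, and Rragd, a GTPase of the same machinery, rose by 1.01. In enzyme sorting 3 of 16 genes rose and 7 fell in B6 CD8+ cDC (62.5% in either direction, near the 57.7% of all genes). With arrays centred on the genes tested 6 rose and 4 fell in that comparison. There Igf2r, which delivers enzymes tagged with mannose 6-phosphate, fell (-1.58 ± 0.23), and in B6 CD11b+ cDC it rose (1.27 ± 0.23).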

How the data were processed

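RNA of sorted spleen dendritic cells was amplified and labelled (5 ng of total RNA, 2.5 µg of cDNA per array, per the labels' protocols) and hybridised to 24 single-colour arrays. The deposited values are log2 expression values per probe set of the authors, for which the submitters' processing notes name Partek and RMA without versions. The labels name one array model and the probe identifiers match the annotation of another, so the model is unsettled here. Of 35556 probe sets the platform annotation gives 1 gene symbol to 21789, several to 1621 and none to 12146, and names were updated through gene identifiers. No further normalization was applied. A gene is the probe set with the highest mean over all arrays where it has several (999 of 19938 genes), values of different probe sets are not compared with each other, and a log2 value has no unit of RNA amount.

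Group means were fitted with limma 3.58.1 in R 4.3.3 over all 24 arrays (8 groups of 3, 16 residual degrees of freedom), with eBayes and a mean trend. P-values were adjusted by the Benjamini-Hochberg method over the 11228 genes tested, separately in each of 16 contrasts (12 between groups and 4 differences of responses to CpG-A), at a threshold of 0.05. The 32 genes, the other lists and the named examples (the 32, and up to 4 of another list with the largest passing differences in a comparison) were chosen with earlier results of these data known. The procedure was tested on simulated data for CpG-A against PBS in B6 CD8+ cDC, where of 200 changed genes among 11228 it recovered 95% of changes of 1 and 40% of changes of 0.5 on the log2 scale, with 5 false calls. The simulated noise was independent between arrays, with 1 standard deviation per gene for all groups. In the data 6475 genes passed in that comparison and the spread differed between groups. These rates therefore do not carry over to the contrasts of the data. Array number limits precision.

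Replicate numbers come from the sample titles, which do not say what a number marks. By the rule that same-numbered arrays must deviate together with a correlation over 0.1 in all 3 pairs, the numbers paired the arrays in the NOD comparisons of CpG-A with PBS (0.181 to 0.338 for CD8+ cDC, 0.155 to 0.215 for CD11b+ cDC), in the strain comparisons of CD8+ cDC (0.2 to 0.288 after PBS, 0.242 to 0.544 after CpG-A) and in all comparisons of the subsets (0.105 to 0.445), and not in the others. Alternatives changed the filter, the probe set rule, the scaling, the variance model, the arrays in the fit and the replicate block, and left out each array in turn.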

Additional observations from a re-analysis of the deposited data

Results flagged for a closer look

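Of the 128 differences of responses to CpG-A tested over the 32 genes, 15 passed, as a test of the difference itself. Of the 32 members 7 and 3 passed between the subsets in B6 and NOD. Between the strains 5 and 0 passed in CD8+ and CD11b+ cDC. Of all genes tested 13.4%, 6.8%, 4.02% and 4.38% passed in that order. Between the subsets in B6 mice, the response in CD8+ minus that in CD11b+ cDC was 1.36 for Lgmn (2.81 against 1.44, adjusted p = 0.0019), 1.19 for Ctsc (1.77 against 0.58, adjusted p = 0.00125), 0.73 for Ctsz (1.02 against 0.29, adjusted p = 0.00156) and 0.79 for Atp6v1b2 (0.97 against 0.18, adjusted p = 0.00177). It was 0.49 for Lamp1 (1.30 against 0.82, adjusted p = 0.0352), -0.42 for Psap (-0.73 against -0.31, adjusted p = 0.0144) and -0.88 for Laptm5 (-0.99 against -0.11, adjusted p = 0.000223). In NOD mice it was 0.68 for Atp6v1b2 (0.83 against 0.15, adjusted p = 0.0118), -0.50 for Grn (0.57 against 1.07, adjusted p = 0.029) and -0.50 for Laptm5 (-0.39 against 0.11, adjusted p = 0.0372). Laptm5 and Atp6v1b2 passed in both strains with the same sign. The NOD call of Laptm5, however, ended under 17 of the alternatives, left-out arrays included. That of Atp6v1b2 ended in a fit of only the groups compared (0.68, adjusted p = 0.077 in limma). In that fit 0 members passed between the subsets in NOD. The NOD differences also use the widely spread arrays of CpG-injected NOD CD8+ cDC.

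Between the strains in CD8+ cDC, the response in NOD minus that in B6 was -0.87 for Ctsc (0.89 against 1.77, adjusted p = 0.0338), -0.64 for Ctsz (0.38 against 1.02, adjusted p = 0.0136), 0.78 for Gusb (-0.76 against -1.53, adjusted p = 0.0379), 0.48 for Psap (-0.24 against -0.73, adjusted p = 0.0141) and 0.60 for Laptm5 (-0.39 against -0.99, adjusted p = 0.018). Each of these 5 rests on the group with the widest spread, CpG-injected NOD CD8+ cDC, and none passed in a fit of only the groups involved (limma). The difference between strains was in each case toward a smaller response in NOD, as for 72.4% of all genes tested.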

How the results depend on the processing

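Of 179 called member differences, 0 lost their call under robust eBayes, the mean of probe sets or the replicate block, and 0 of 175 under the filter of 12 arrays. The others lost 10 without a filter, 13 and 11 under quantile normalization and centring on the genes tested, 17 when centred on all probe sets, 13 without the trend, and 31 in fits of only the groups compared. Of 1164 left-out-array values 151 lost the call. Under quantile normalization Ctss reversed after CpG-A in B6 CD8+ (-0.14) and B6 CD11b+ cDC (-0.04), and Ctsh in B6 CD11b+ cDC (-0.25). The cause was not tested. The count of members in the strain comparison of PBS-injected CD8+ cDC was 0 under the 12-array filter, where Mcoln2 is not tested, under quantile normalization and when centred on all probe sets. In the interaction of strain and CpG-A in CD8+ cDC it was 2 when centred on all probe sets. The interaction of subset and CpG-A in NOD gave 1 without the trend. In fits of only the groups compared, with fewer arrays, the counts were 2 and 2 for the strain comparisons of CpG-injected CD8+ and PBS-injected CD11b+ cDC, 0 and 4 for the strain interactions in CD8+ and CD11b+ cDC, and 11 and 0 for the subset interactions in B6 and NOD. Where no count is named the alternatives other than leaving out an array stayed within 1.5 times.

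With the replicate number as a block, which ended no member's call, the counts were 1 for the strain interaction in CD11b+ cDC (0 without it) and 11 and 7 for the subset interactions in B6 and NOD (7 and 3). Over all genes the block raised the strain interactions from 451 to 728 in CD8+ and from 492 to 766 in CD11b+ cDC. It raised the subset interactions from 1502 to 2009 in B6 and from 764 to 1141 in NOD. Fits of only the groups compared moved the count over all genes from 2270 to 390 for the strains in CpG-injected CD8+ cDC, from 4567 to 2584 for CpG-A in NOD CD8+ cDC, from 4335 to 2554 for the subsets in CpG-injected NOD mice, from 451 to 164 and from 492 to 945 for the strain interactions in CD8+ and CD11b+ cDC, and from 764 to 303 for the subset interaction in NOD. With 1 array left out, the members called numbered 19 to 23, 18 to 22, 17 to 18 and 9 to 10 for CpG-A in B6 CD8+, NOD CD8+, B6 CD11b+ and NOD CD11b+ cDC. For the strains they numbered 0 to 1 and 8 to 20 in CD8+ cDC after PBS and CpG-A, and 1 to 1 and 3 to 6 in CD11b+ cDC. For the subsets they numbered 14 to 17 and 14 to 16 in B6 and NOD after PBS and 14 to 18 and 17 to 24 after CpG-A. The interactions gave 0 to 9 and 0 to 1 for the strains in CD8+ and CD11b+ cDC, and 6 to 9 and 1 to 10 for the subsets in B6 and NOD. Centring on the genes tested was chosen after seeing the data.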

Other observations

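Genes of autophagy, which delivers a cell's own material to lysosomes, passed in both directions. In B6 CD8+ cDC 54.5% of those tested passed after CpG-A, near the 57.7% of all genes. Of 11 tested 4 rose and 2 fell after CpG-A in B6 CD8+, 2 and 1 in NOD CD8+, 4 and 2 in B6 CD11b+ and 2 and 1 in NOD CD11b+ cDC. With arrays centred on the genes tested 8 rose and 1 fell, 4 and 1, 4 and 2, and 2 and 0 in that order, and after quantile normalization 2 rose and 3 fell in B6 CD11b+ cDC. Sqstm1, the cargo receptor p62, rose by 1.04 ± 0.12, 1.05, 0.97 and 0.65 in that order. Of 12 genes of endosome and phagosome trafficking 2 rose and 6 fell in B6 CD8+ cDC (4 and 3 with arrays centred on the genes tested), 1 and 4 in NOD CD8+ (4 and 3 when centred), 2 and 1 in B6 CD11b+ (3 and 1) and 2 and 0 in NOD CD11b+ cDC (3 and 1). In B6 CD8+ cDC 66.7% of these genes passed as deposited, against 57.7% of all genes. Rab32, a GTPase of phagosomes and lysosome-related organelles, fell by 1.52 in B6 CD8+ and 0.86 in NOD CD8+ cDC.

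Several of the lysosomal genes outside the 32 separated the subsets under PBS. In CD8+ cDC the thioesterase Ppt1 was higher by 2.10 ± 0.14 in B6 and 2.11 ± 0.14 in NOD, the sorting receptor Igf2r by 1.93 ± 0.23 and 1.83 ± 0.23, the membrane protein Laptm4b by 2.22 ± 0.20 and 1.95 ± 0.20, and the inhibitor Serpinb6b by 2.58 ± 0.16 and 2.64 ± 0.16. Acp5, the tartrate-resistant acid phosphatase, was lower in CD8+ cDC, with differences of -1.95 ± 0.20 in B6 and -1.68 ± 0.20 in NOD. Levels of different probe sets are not compared here.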
